A study of Mus musculus with 4 samples.

Results

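The heptad is a set of 7 blood transcription factor genes, Gata2, Runx1, Tal1, Lmo2, Lyl1, Erg and Fli1, whose products bind many regulatory regions of hematopoietic stem and progenitor cells (HSPC) together. They were matched by gene symbol, and all 7 were found among the 24015 symbols of the count tables and passed the filter on low counts. The set itself was chosen with earlier results of these data known. The data are RNA-seq read counts from 4 mouse libraries of sorted HSPC, 2 from caNIK mice and 2 from control mice. In caNIK mice, a mutant form of the kinase NIK that TRAF3 cannot target lies behind a loxP-flanked stop at Rosa, and Vav-iCre, a Cre recombinase under the Vav promoter, which is active in blood cells, removes the stop throughout the hematopoietic system. The control mice are described only as controls, and the sources used here do not say whether they carried Vav-iCre or the unrecombined NIK allele. They also leave unstated which markers were used in the sort, which tissue was taken, and how old and how many the mice were. The study's stated interest is the effect of NIK activation on stem cell self-renewal, and the comparison here asks how the heptad transcripts differed in caNIK HSPC.

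Each heptad protein belongs to a family of DNA-binding or bridging factors. GATA2 is a zinc finger protein that binds GATA sequences. TAL1 (also called SCL) and LYL1 are related basic helix-loop-helix proteins that pair with E proteins on E-boxes. LMO2 does not bind DNA itself and bridges the GATA and TAL1 or LYL1 proteins through the adaptor LDB1. ERG and FLI1 are related ETS factors, and RUNX1 binds DNA with its partner CBFB. The factors are known for control of each other's genes, and several are needed for the formation or upkeep of blood stem cells. GATA2 also acts in mast cells, TAL1 in erythroid and megakaryocytic cells, and ERG and FLI1 in endothelium and megakaryocytes.

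Total counts ran from 18574452 to 23162766 per library, and the counts of the replicates of each group differed by more than sampling noise. Nothing in the labels ties each replicate to its own mouse, so the p-values below reflect only the scatter among these libraries, part or all of which may be technical. Map3k14, which encodes NIK, had 178 and 192 CPM in the caNIK libraries, against 30.2 and 25.1 CPM in the control libraries. CPM here are counts scaled to a common library size with TMM factors (trimmed mean of M-values). Of the 11 markers of stem and progenitor cells, the receptor gene Kit had 558 and 506 CPM in caNIK and 610 and 613 CPM in control, and the leukocyte gene Ptprc was also well detected in each library. In caNIK 3 of these markers were lower, among them Cd34 and the regulator Hlf, and 2 were higher, Mllt3 and Ly6a. Among all tested genes 8.21% were lower and 13.8% higher, so the number of higher markers was near that background. With a filter of at least 1 read in any library, 5 markers were lower.

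The heptad did not move as a block. Gata2 was higher in caNIK HSPC, and Lmo2, Erg, Lyl1 and Runx1 were lower, each past an adjusted p of 0.05 in edgeR's quasi-likelihood test. Tal1 lay on the side of Gata2 and Fli1 on the side of the lower genes, but neither passed. Of the 7 members, 5 were called, against 22.0% of the 14191 genes tested. By direction, 4 members were lower, against 8.21% of tested genes, and 1 was higher, against 13.8%. The median log2 fold change of the 7 was -0.80, beside 0.00 over all tested genes. In all 7 members the caNIK values did not overlap the control values, which was also true of 64.9% of tested genes. Summed over the 7 genes the level was 1003 ± 41.2 CPM in caNIK and 1185 ± 71.8 CPM in control (SD, n = 2 each), a ratio of 0.846. In bulk libraries, fewer cells of a type and less RNA per cell cannot be told apart, and this holds for each value below.

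**Figure D1:**
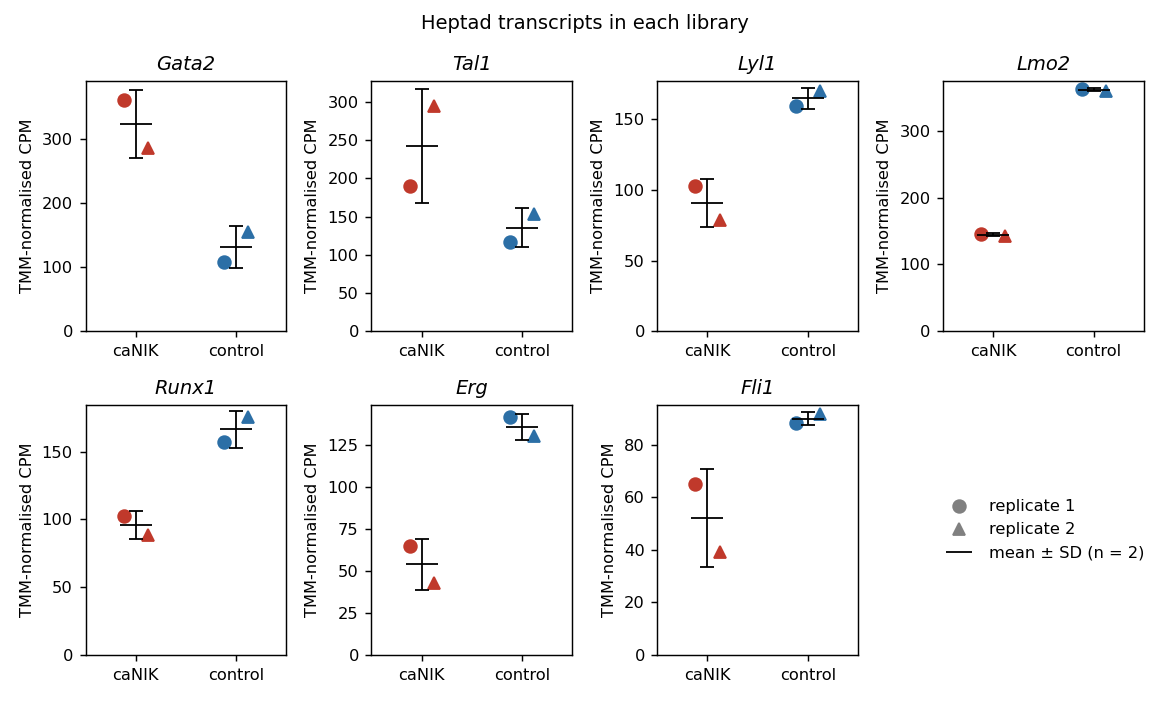
TMM-normalised CPM (y axis, from 0) of the 7 heptad genes in each library, with caNIK left and control right in each panel. Points are libraries and bars are mean ± SD (n = 2). Gata2 and Tal1 lie higher in both caNIK libraries, and the other 5 genes lie lower.

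The heptad proteins are known to bind regulatory sequence of heptad genes, so promoters were searched for the short core sequences of each family. RefSeq promoter sequences of GRCm38.p6, from 250 bases before to 50 bases after a start, were matched by symbol for 5 members with 10 starts. The letters searched were AGATAA for GATA factors, CAGCTG for an E-box, TGTGGT for RUNX, AGGAAG for ETS and GGGNNNTCC for NF-kB, each on both strands, and no 2 matches overlapped. Over 32851 promoters of the same length, 11.2% held the GATA letters, 16.3% the E-box, 16.8% the RUNX, 35.4% the ETS and 17.8% the NF-kB letters. Among the 10 starts of the heptad genes, 4 held a match and 6 held none. The share of all promoters with any of these matches was not counted. By family, 2 of the 10 starts held the GATA letters, 1 the E-box, 1 the RUNX and 2 the ETS letters. The NF-kB letters were found at no start. With so few starts, these numbers cannot be told apart from the shares over all promoters. The 4 starts with a match are printed, with matches in capitals and every other base in lower case. The other starts of Gata2, Tal1, Runx1 and Erg, and the start of Lyl1, held no match. At its printed start Gata2 has 1 E-box, which begins 17 bases after the start. Tal1 has 1 GATA match, which begins 205 bases before the start. Runx1 has a pair of RUNX matches, 28 and 36 bases after the start, read on the other strand as ACCACA, and 1 ETS match 124 bases before it. Erg has 1 GATA match 103 bases before and 1 ETS match 40 bases before the start. These are matches of letters, not evidence of binding, and the counts were made on another build (mm9).
Gata2, chr6:88198414-88198713, plus strand: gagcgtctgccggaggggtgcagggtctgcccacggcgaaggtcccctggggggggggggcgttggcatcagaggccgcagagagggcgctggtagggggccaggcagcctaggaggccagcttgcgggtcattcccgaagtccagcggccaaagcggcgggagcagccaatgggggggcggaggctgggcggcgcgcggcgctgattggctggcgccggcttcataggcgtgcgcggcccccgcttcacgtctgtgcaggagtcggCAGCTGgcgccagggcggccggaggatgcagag
Tal1, chr4:115056176-115056475, plus strand: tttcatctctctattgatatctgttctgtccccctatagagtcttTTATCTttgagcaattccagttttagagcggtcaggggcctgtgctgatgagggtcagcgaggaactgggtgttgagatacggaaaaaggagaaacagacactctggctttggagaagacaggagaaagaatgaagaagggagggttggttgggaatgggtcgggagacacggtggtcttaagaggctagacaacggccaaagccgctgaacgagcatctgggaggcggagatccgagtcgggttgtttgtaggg
Runx1, chr16:92826025-92826324, minus strand: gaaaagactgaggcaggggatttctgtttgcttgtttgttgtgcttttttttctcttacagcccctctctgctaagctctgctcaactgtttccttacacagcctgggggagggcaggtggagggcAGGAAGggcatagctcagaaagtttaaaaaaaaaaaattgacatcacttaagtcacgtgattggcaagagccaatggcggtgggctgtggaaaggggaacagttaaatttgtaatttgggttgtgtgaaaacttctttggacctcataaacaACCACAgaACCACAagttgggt
Erg, chr16:95459299-95459598, minus strand: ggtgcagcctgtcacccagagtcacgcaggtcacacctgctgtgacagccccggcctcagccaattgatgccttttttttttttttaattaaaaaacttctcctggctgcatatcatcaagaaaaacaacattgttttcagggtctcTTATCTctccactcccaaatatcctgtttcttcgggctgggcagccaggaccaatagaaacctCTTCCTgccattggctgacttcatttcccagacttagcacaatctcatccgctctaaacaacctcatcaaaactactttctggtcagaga

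Gata2 was the heptad gene called higher. It had 361 and 286 CPM in the caNIK libraries, against 108 and 155 CPM in the control libraries, from 6725 and 5934 reads in caNIK and 2085 and 3638 reads in control. Both caNIK libraries lay above both control libraries, and caNIK replicate 1 was the highest of the 4. The mean was 324 ± 53.1 CPM in caNIK and 132 ± 33.1 CPM in control (SD, n = 2 each). Its log2 fold change was 1.30 ± 0.22 (SE; edgeR adjusted p = 0.00835), which is a 2.46-fold higher level, and 20.4% of tested genes had a larger change in either direction. Across the 4 pairings of a caNIK with a control library, the log2 difference ran from 0.88 to 1.74.

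Tal1, the helix-loop-helix partner in GATA complexes, had 190 and 295 CPM in caNIK and 117 and 154 CPM in control. All caNIK values were above the control values, but caNIK replicate 2 stood well above caNIK replicate 1, with a log2 difference of 0.64 between them. The log2 fold change was 0.84 ± 0.25 (SE), and edgeR's adjusted p of 0.0543 did not pass the threshold. It passed in DESeq2's Wald test (adjusted p = 0.00794) and without caNIK replicate 1 (edgeR log2 fold change 1.13, adjusted p = 0.00984) or control replicate 2 (1.05, adjusted p = 0.0143). Without caNIK replicate 2 the log2 fold change was 0.46.

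Lyl1, the relative of Tal1 with overlapping roles in adult stem cells, differed in the other direction. It had 103 and 78.9 CPM in caNIK, against 160 and 170 CPM in control. No caNIK value reached a control value. The log2 fold change was -0.86 ± 0.18 (SE; edgeR adjusted p = 0.0165), which is 55.1% of the control level. Reads of Tal1 per read of Lyl1 within a library, a ratio that library scaling cannot move, numbered 1.84 and 3.74 in caNIK and 0.735 and 0.902 in control. Both caNIK ratios were higher than both control ratios, and they also differed from each other. The difference of this log2 ratio, caNIK minus control, was 1.69, with an SD of 0.72 in caNIK and 0.21 in control. An exact two-sided permutation test gave p = 0.333, the smallest that 2 against 2 libraries allow.

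Lmo2, the bridging member, was the most even within groups. It had 146 and 143 CPM in the caNIK libraries, against 363 and 360 CPM in the control libraries. The replicates of each group nearly coincided and the groups lay far apart. Lmo2 fell by 1.32 on the log2 scale, with an SE of 0.14 and an edgeR adjusted p of 0.00125, to 40.0% of the control level. The log2 fold change lay between -1.34 and -1.33 whichever library was left out. Reads of Gata2 per read of Lmo2 were 2.48 and 2.0 in caNIK and 0.298 and 0.431 in control. Both caNIK ratios lay far above both control ratios. The log2 ratio differed by 2.64, with SDs of 0.22 in caNIK and 0.38 in control (exact permutation p = 0.333, the smallest possible).

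Erg, an ETS factor, had 64.7 and 43.1 CPM in caNIK and 141 and 130 CPM in control. Both caNIK libraries were lower, replicate 2 more so. The log2 fold change was -1.33 ± 0.22 (SE; edgeR adjusted p = 0.00751), which is 39.7% of the control level, a fall close to that of Lmo2. Fli1, its close relative, had 65.3 and 39.1 CPM in caNIK and 88.3 and 91.7 CPM in control. The caNIK values were lower but spread widely, and caNIK replicate 1 lay nearer to the controls. The log2 fold change of Fli1 was -0.79 ± 0.25 (SE; edgeR adjusted p = 0.0673). It passed in DESeq2 (adjusted p = 0.025), narrowly in limma-voom (adjusted p = 0.0477), without caNIK replicate 1 (edgeR log2 fold change -1.20, adjusted p = 0.00589) and without control replicate 1 (adjusted p = 0.0494). Without caNIK replicate 2 its log2 fold change was -0.48. Reads of Erg per read of Fli1 were 0.991 and 1.1 in caNIK and 1.6 and 1.42 in control, a log2 difference of -0.53 with SDs of 0.11 in caNIK and 0.12 in control (exact permutation p = 0.333). Both caNIK ratios lay below both control ratios.

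Runx1, the core-binding factor subunit, had 103 and 88.5 CPM in caNIK, against 157 and 176 CPM in control. The groups were separate and the replicates close. Its log2 fold change was -0.80 ± 0.16 (SE; edgeR adjusted p = 0.0146), which is 57.5% of the control level. This call was lost without control replicate 2, where the log2 fold change was -0.71 and the adjusted p = 0.0701. The remaining 4 called members, Gata2, Lmo2, Lyl1 and Erg, passed under each of the 12 alternatives tried.

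**Figure D2:**
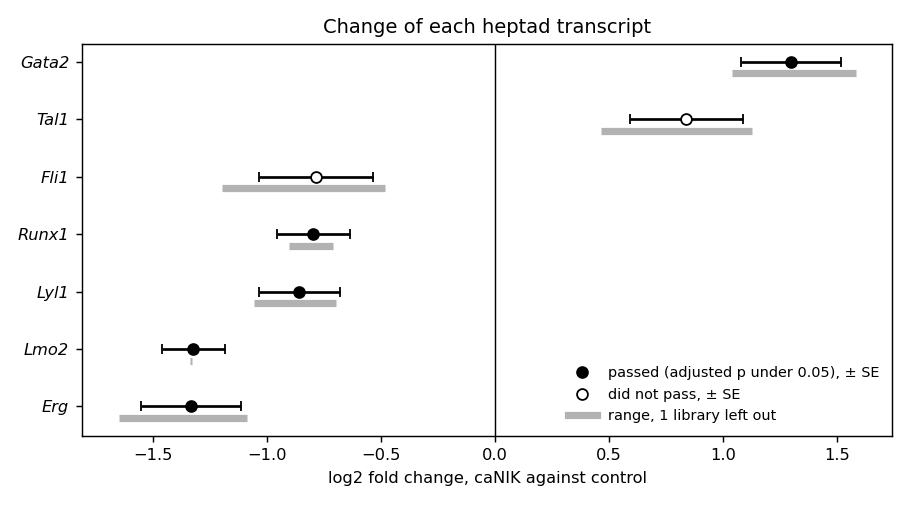
Log2 fold change of each heptad gene (x axis, caNIK against control) with its SE. Filled points passed an adjusted p of 0.05, open points did not, and grey bars give the range when 1 library is left out. Gata2 at 1.30 and Erg at -1.33 mark the ends, and no bar crosses 0.

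To compare levels between the genes, CPM were divided by the exon length of each gene in the GENCODE M21 basic annotation (GRCm38), in kilobases. On this scale Lmo2 led in control HSPC with 192 and 190 CPM per kb. Lyl1 followed in control with 88.7 and 94.5 CPM per kb. The next control levels were those of Erg with 40.8 and 37.6, Gata2 with 29.4 and 42.1, Tal1 with 27.4 and 35.8 and Fli1 with 26.6 and 27.6 CPM per kb. Along this run of 4 genes, the replicate values of each overlapped those of the next. Runx1 was last in control, with 21.0 and 23.6 CPM per kb, but stood above Fli1 when the length of the longest coding transcript was used.

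In caNIK HSPC Gata2 came first on this scale, with 98.1 and 77.7 CPM per kb, and barely cleared Lmo2 with 77.0 and 75.5 CPM per kb. Tal1 followed in caNIK with 44.2 and 68.9 CPM per kb and overlapped Lyl1 with 57.2 and 43.8 CPM per kb. Fli1 (19.7 and 11.8), Erg (18.7 and 12.4) and Runx1 (13.8 and 11.9 CPM per kb) were lowest in caNIK, and their values overlapped each other. As a share of the summed heptad level per kb, Gata2 held 29.8% and 25.7% in the caNIK libraries, against 6.89% and 9.33% in the control libraries. Tal1 held 13.5% and 22.8% in caNIK and 6.44% and 7.94% in control. Lmo2 held 23.4% and 25.0% in caNIK and 45.1% and 42.1% in control. Gata2 and Tal1 thus held larger shares in both caNIK libraries, and Lmo2 a smaller one.

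**Figure D3:**
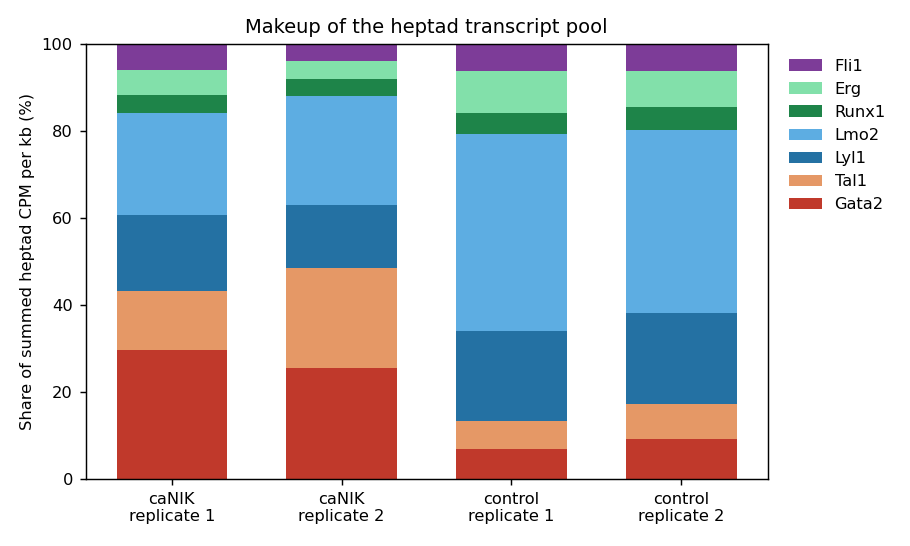
Share of each gene in the summed heptad level per kb (y axis, percent) for the 4 libraries, caNIK left. Lmo2 holds 23.4% and 25.0% in caNIK and 45.1% and 42.1% in control, and Gata2 holds 29.8% and 25.7% in caNIK and 6.89% and 9.33% in control.

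Of 12 listed partners that join heptad factors in complexes 11 were tested, 3 were lower and 8 did not pass, with a median log2 fold change of -0.25. Over all tested genes 22.0% were called in either direction, and the number of partners called was near that share. All called partners were lower, and their number lay above the 8.21% lower over all tested genes. Ssbp2, a single-stranded DNA-binding protein that stabilises LDB1, had 26.1 and 24.1 CPM in caNIK and 74.8 and 71.9 CPM in control (log2 fold change -1.55 ± 0.16; edgeR adjusted p = 0.00125). Its relative Ssbp4 fell by 1.08 on the log2 scale (adjusted p = 0.00503) and the corepressor gene Cbfa2t3 by 0.75 (adjusted p = 0.028). Ldb1 itself, the adaptor that LMO2 binds, had 273 and 304 CPM in caNIK and 308 and 378 CPM in control (edgeR adjusted p = 0.322). Cbfb, the partner of RUNX1, had 242 and 244 CPM in caNIK and 247 and 187 CPM in control (adjusted p = 0.552), and the replicates spanned that difference. The E protein gene Tcf3 (log2 fold change 0.52) and Zfpm1 (0.98), which encodes the GATA cofactor FOG1, had positive changes that did not pass in edgeR's test (adjusted p = 0.095 and 0.0998).

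Of 24 paralogs of the heptad genes 19 were tested, 3 were higher, 4 were lower and 12 did not pass, with a median log2 fold change of -0.11. Over all tested genes 13.8% were higher and 8.21% lower. The number of higher paralogs was near that background, and the number of lower ones lay above it. Spib, an ETS factor of B cells and plasmacytoid dendritic cells, had 148 and 159 CPM in caNIK, against 2.70 and 1.88 CPM in control (log2 fold change 6.08 ± 0.24; edgeR adjusted p = 5.5e-05). Runx3, which acts in T and NK cells, rose while Runx1 fell, with 198 and 189 CPM in caNIK and 117 and 135 CPM in control (log2 fold change 0.62 ± 0.15; adjusted p = 0.0298). Runx2 was lower, with 67.5 and 25.9 CPM in caNIK and 133 and 123 CPM in control (adjusted p = 0.0446). Lmo1, the relative of Lmo2, fell by 3.44 on the log2 scale but had only 9.86 and 7.58 CPM even in control. Spi1, which encodes PU.1, fell by 0.59 (adjusted p = 0.0451).

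Gata1, the erythroid relative that takes over from GATA2 at many sites as red cells form, had 101 and 171 CPM in caNIK and 22.5 and 62.8 CPM in control. It passed narrowly in edgeR's test, at 1.67 ± 0.48 on the log2 scale (SE; adjusted p = 0.0497). Reads of Gata2 per read of Gata1 were 3.56 and 1.67 in caNIK and 4.82 and 2.47 in control. These ratios overlapped between the groups, and the log2 difference of -0.50 was smaller than the SD within caNIK (0.77) or control (0.68; exact permutation p = 0.667). Without caNIK replicate 2 the difference was 0.05.

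**Figure D4:**
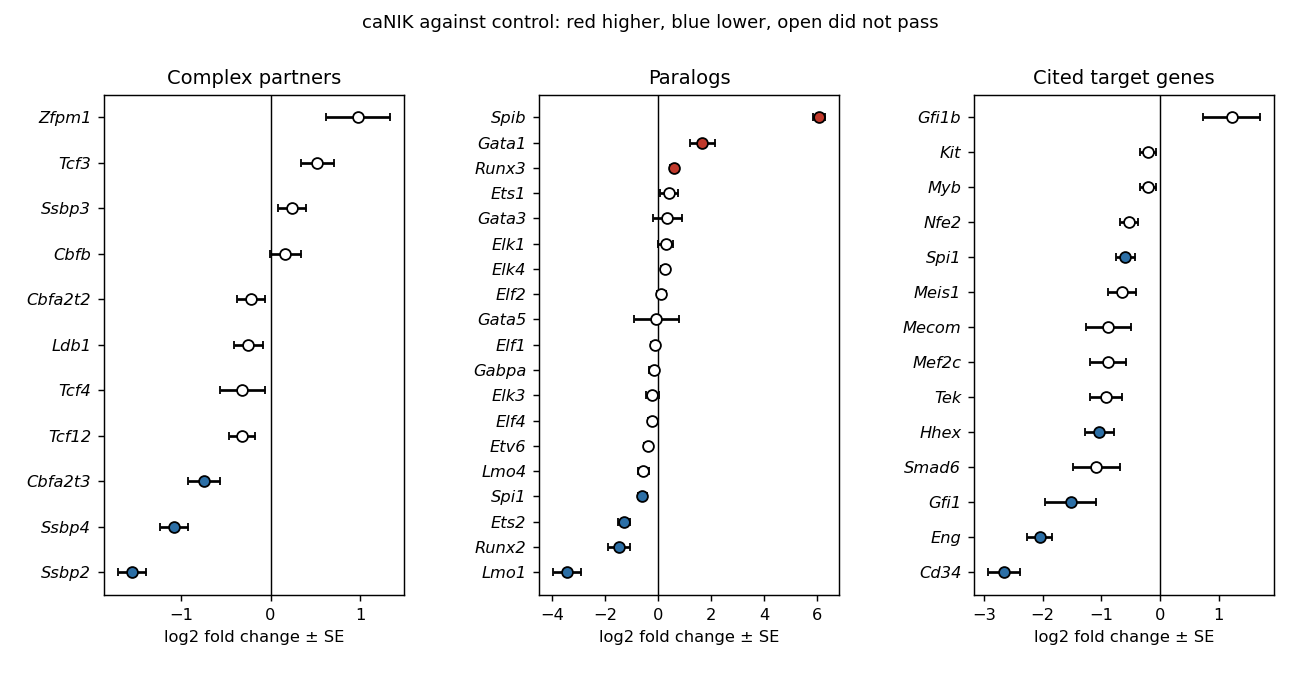
Log2 fold change, caNIK against control, with SE (x axes differ in range) for the tested complex partners, paralogs and cited target genes. Red points were higher, blue points lower, and open points did not pass; Spib at 6.08 and Lmo1 at -3.44 are the ends of the paralogs.

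Of genes cited as targets of heptad factors, some were lower in caNIK. All 14 listed were tested, 5 were lower and 9 did not pass, with a median log2 fold change of -0.88. Some lists share genes, and a shared gene counts in each. Of the lower targets, Cd34 is also among the stem and progenitor markers and Spi1 among the paralogs. Over all tested genes 8.21% were lower and the median was 0.00. Cd34, a surface sialomucin of progenitors, had 143 and 84.1 CPM in caNIK, against 793 and 642 CPM in control (log2 fold change -2.66 ± 0.28; edgeR adjusted p = 0.00126). Eng, a co-receptor for TGF-beta ligands, fell by 2.05 on the log2 scale and had 41.0 and 29.2 CPM in caNIK and 134 and 157 CPM in control. Hhex, Gfi1 and Spi1 were the other lower targets, with log2 fold changes of -1.03, -1.52 and -0.59. Myb and Kit had log2 fold changes of -0.20 each and did not pass (adjusted p = 0.333 and 0.345). Gfi1b, which acts in erythroid and megakaryocytic cells, had 61.1 and 121 CPM in caNIK and 21.5 and 56.6 CPM in control without passing (adjusted p = 0.126). Lower targets numbered from 3 to 10 over the alternatives, and 9 without caNIK replicate 1.

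The nearest protein-coding gene on each side of the heptad genes gave 14 chromosomal neighbours, of which 11 were tested, 1 was lower and 10 did not pass, beside 22.0% called over all tested genes. The lower neighbour was Ets2, an ETS gene beside Erg, with 13.7 and 10.7 CPM in caNIK and 30.6 and 28.6 CPM in control (log2 fold change -1.28 ± 0.24; edgeR adjusted p = 0.011). Ets1, the ETS gene beside Fli1, had 124 and 66.9 CPM in caNIK and 88.2 and 53.6 CPM in control, values that overlapped (adjusted p = 0.424). Caprin1, beside Lmo2, had a log2 fold change of -0.06 and Rpn1, beside Gata2, one of -0.26. Runx1 shares 1.42% of its exon bases with Gm26626 on the opposite strand and Lyl1 shares 4 bases with Nfix, whose log2 fold change was -0.42 (adjusted p = 0.108). The other 5 members share no exon base with another gene in that annotation.

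Profiles over the 4 libraries were compared by the root mean square distance between log2 CPM centred on each gene's mean. Among heptad genes, Runx1 and Lyl1 were the most alike (distance 0.07) and Gata2 and Erg the least (1.36). Against 10394 other genes with a mean of at least 5 CPM, the nearest to Gata2 were Smpd1, which encodes acid sphingomyelinase (0.02), and the platelet receptor gene Gp1ba (0.07). Nearest to Lmo2 were the acyl-CoA synthetase gene Acsl3 and Syce2 (0.02 and 0.03). Nearest to Erg were Cand2 and the transporter gene Slco3a1 (0.01 and 0.04). Nearest to Runx1 were the zinc finger genes Zbtb12 and Rreb1 (0.02 and 0.03), and nearest to Lyl1 were Fhl3 and Rere (0.01 and 0.03). With 4 libraries in 2 groups, such likeness is a description only.

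Markers of single lineages also differed between the groups, some lists upward and others downward, and their part in the heptad results was not tested. Of 10 mast cell and basophil markers, 8 were higher and 2 did not pass, beside 13.8% higher over all tested genes. The summed level of these markers was 2790 and 1370 CPM in caNIK, against 70.5 and 140 CPM in control. Tpsb2, a mast cell tryptase, had 704 and 357 CPM in caNIK and 7.78 and 4.39 CPM in control, and Cma1, a chymase, 453 and 230 CPM in caNIK and 8.71 and 3.96 CPM in control. Fcer1a, the IgE receptor chain, had no read in control replicate 1. Within each group the library with more Gata2 also had the higher sum of these markers, and of the megakaryocyte markers. With 2 libraries in each group, such an order is a description only.

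Among all tested genes 13.8% were higher and 8.21% lower. Of 9 erythroid markers with counts, 6 were higher and 3 did not pass. Their summed level was 3490 and 5510 CPM in caNIK, against 528 and 1110 CPM in control. Alas2, the erythroid enzyme of heme synthesis, had 234 and 311 CPM in caNIK and 1.61 and 1.88 CPM in control, and Car2 had 1860 and 2604 CPM in caNIK and 318 and 441 CPM in control. Within each group the library with more Tal1 also had the higher erythroid sum, and the higher granulocyte-monocyte sum, which was lower in caNIK than in control. This order too rests on 2 libraries in each group and is a description only. Of 9 tested megakaryocyte markers, 4 were higher, among them the integrin genes Itgb3 and Itga2b, 2 were lower, among them Gp9, and 3 did not pass; higher ones numbered 1 without caNIK replicate 1 and 2 without caNIK replicate 2 or control replicate 1. With library totals in place of TMM factors, 2 megakaryocyte markers were higher and 2 lower. The summed level of the 10 listed megakaryocyte markers was 590 and 466 CPM in caNIK and 235 and 334 CPM in control.

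**Figure D5:**
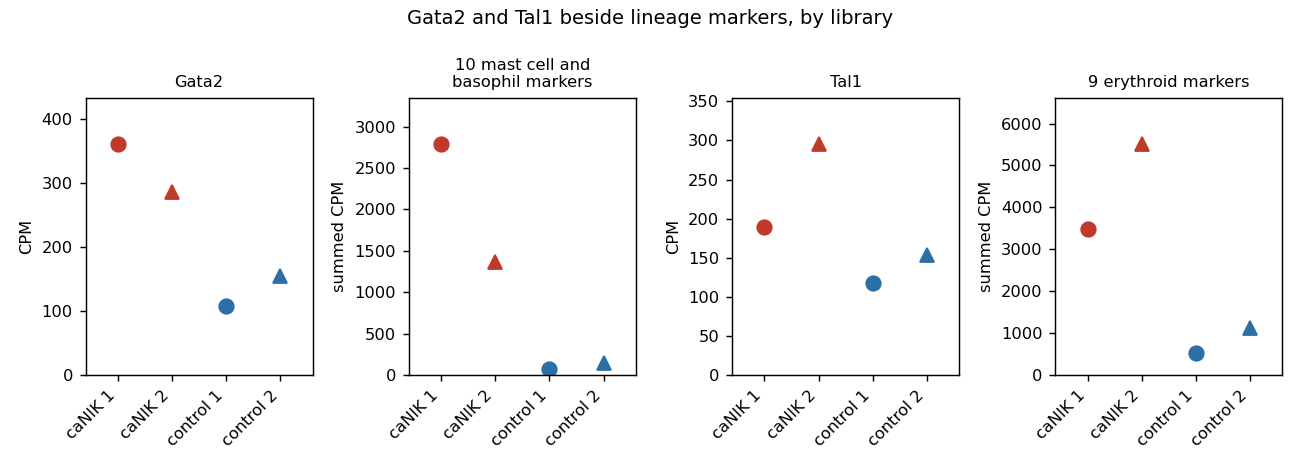
CPM of Gata2 and Tal1 and summed CPM of mast cell and basophil or erythroid markers (y axes, from 0) in each library, caNIK left in red and control right in blue. Circles are replicate 1 and triangles replicate 2. Gata2 and mast cell markers are highest in caNIK replicate 1, and Tal1 and erythroid markers in caNIK replicate 2. With 2 libraries in each group, these orders are a description only.

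Lymphoid, granulocyte-monocyte and endothelial markers were lower or did not pass. Among all tested genes 8.21% were lower and 13.8% higher. Of 10 lymphoid markers 5 were lower and 5 did not pass, with a summed level of 280 and 115 CPM in caNIK and 1080 and 689 CPM in control. Flt3, the cytokine receptor gene of lymphoid-primed progenitors, had 113 and 58.3 CPM in caNIK and 593 and 472 CPM in control, and the recombinase gene Rag1 fell by 3.06 on the log2 scale. Il7r had 78.0 and 29.0 CPM in caNIK and 33.8 and 17.4 CPM in control, values that overlapped. With at least 1 read in any library, and with the replicate block, 7 lymphoid markers were lower and 1 was higher. Without caNIK replicate 2, 2 lymphoid markers were lower. Of 10 granulocyte-monocyte markers 4 were lower and 6 did not pass. Their summed level was 228 and 257 CPM in caNIK and 1350 and 3280 CPM in control. Most of the control sum was Mpo, with 61.3 and 66.0 CPM in caNIK and 1038 and 2503 CPM in control. Mpo and Csf3r were the lower ones with the smallest p. Ly86 went the other way without passing, with 15.3 and 10.5 CPM in caNIK and 1.04 and 5.33 CPM in control. Without control replicate 2, 4 of those markers were lower and 3 higher, and without control replicate 1, 7 were lower. Of 8 tested endothelial markers 4 were lower and 4 did not pass. Tie1 had 6.93 and 5.26 CPM in caNIK and 51.0 and 53.9 CPM in control. Emcn fell by 6.65 on the log2 scale, but from only 1 and 6 reads in caNIK, against 401 and 369 reads in control. The endothelial cadherin gene Cdh5 lay between 1.24 and 5.58 CPM in the 4 libraries, and Cldn5 had no read in caNIK replicate 2.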

How the data were processed

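Total RNA of sorted HSPC was column-purified and sequenced, per the labels' protocols. The authors deposited raw counts of reads for each gene symbol, 1 table a library, per the file headers. FastQC, TopHat2 2.1.0, featureCounts 1.5.0, DESeq2 1.10.1 and the build mm9 appear in the submitters' processing notes. Which annotation was used, whether counting used strand, and how multi-mapping reads were handled is not stated there. Groups and replicate numbers came from the sample titles.

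The statistics were computed with edgeR 4.0.16 (R 4.3.3). Genes were kept by filterByExpr (14191), scaled by TMM and tested for the group difference with glmQLFit and glmQLFTest, two-sided, without covariates. P-values were adjusted over all 14191 genes by Benjamini-Hochberg, with a threshold of 0.05. Log2 fold changes are caNIK against control, with SE from the F statistic. Alternatives were DESeq2 1.42.0, limma-voom (limma 3.58.1), other scalings and filters, a replicate block, and each library left out in turn.

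The members, gene lists and tests were chosen with earlier results of these data known. The genes named are the 7 members, Map3k14, Gata1, from each list up to 2 called genes with the smallest p in each direction, and the 2 genes most like each called member. Some genes of the lists are not reported here by name. Any other gene, the neighbour rule and the motifs were chosen after values were seen. Sequences are RefSeq's, with coordinates of GRCm38.p6.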

Additional observations from a re-analysis of the deposited data

How the results depend on the processing

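The direction of each of the 7 heptad genes was the same in the main analysis and in all 12 alternatives. The number of higher members was 1, and 2 with DESeq2, with a filter of at least 1 read in any library, and with the replicate block; it ran from 1 to 2 when 1 library was left out. The number of lower members was 4, with 3 to 5 over the alternatives. Tal1, with a log2 fold change of 0.84, passed in DESeq2 (0.85), with at least 1 read in any library (0.84) and with the replicate block (0.82), and its value ran from 0.46 to 1.13 with 1 library left out. Fli1, at -0.79, passed in DESeq2 (-0.78), limma-voom (-0.84), with at least 1 read in any library (-0.79) and with the replicate block (-0.83), and ran from -1.20 to -0.48 with 1 library left out. Runx1 ran from -0.91 to -0.71 and lost its call without control replicate 2. The cause of these changes was not tested. A fit that leaves a group with 1 library assumes that it varies like the other group. Genes called numbered 3129 in the main analysis and 4260 with the replicate block. The numbers pair no samples by the labels; replicate differences correlated at 0.213 between the groups, over tested genes. Called genes over all the lists beside the heptad numbered 50, with 39 to 72 over the alternatives, but counts of single lists moved by over 1.5 times in some of them. Lower target genes numbered 5, with 3 to 10 over the alternatives, and higher partners at most 2. Lower lymphoid markers numbered 5, with 2 to 7, higher megakaryocyte markers 4, with 1 to 5, and lower granulocyte-monocyte markers 4, with 3 to 7, beside up to 3 higher ones. Lower paralogs numbered 4, with 2 to 6, and lower stem and progenitor markers 3, with 3 to 5. With at least 1 read in any library, and with the replicate block, 1 lymphoid marker and 1 cited target gene were higher. The design of 2 against 2 libraries limits precision. The lowest count of a heptad gene was 811 reads (Fli1 in caNIK replicate 2).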
